A study of Mus musculus with 8 samples.

Results

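The BCL2 family of survival and death genes was examined in fully grown germinal vesicle (GV) oocytes that lack Cnot7 and Cnot8. The members were taken by gene symbol as 10 of the 46078 genes in the deposited count table: the pro-survival genes Bcl2l10, Bcl2l1, Mcl1, Bcl2l2 and Bcl2, the BH3-only genes Bcl2l11, Bid and Bad, and the pore-forming genes Bok and Bak1. They were picked by name, without a threshold on measured values, but with earlier results of these data known. Another 16 genes of the family, among them Bax, Bbc3 and Pmaip1, were kept as a separate list.

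Proteins of this family decide at the mitochondrial outer membrane whether a cell lives. Pore-forming members open the membrane and release cytochrome c, which activates caspases; pro-survival members hold the pore formers and the BH3-only proteins in check; BH3-only proteins carry the death signal and free the pore formers. In the ovary, Bcl2 and Mcl1 are known to support the survival of oocytes, Bcl2l11 and other BH3-only genes to serve their removal, and Bcl2l10 to be expressed mainly in oocytes.

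RNA-seq was compared between 4 libraries of CNOT7&8 KO oocytes and 4 libraries of control oocytes from Zp3-Cre mice, each made from 100 GV oocytes. The KO oocytes came from mice with floxed Cnot7 (Cnot7 fl/fl) and floxed Cnot8 (Cnot8 fl/fl), backcrossed to C57BL/6J for at least 8 generations, that were bred to Zp3-Cre mice. Zp3-Cre, which the controls carry too, is driven by the Zp3 promoter and acts in growing oocytes, so the surrounding follicle cells are not targeted and deletion starts only during growth. Oocytes were collected 48 h after PMSG from 4-week-old females with a C57BL/6J background. The paper's methods state that cumulus cells were removed with hyaluronidase and pipetting, and that GV oocytes were kept in medium with dibutyryl-cAMP until use. The labels do not say how many females gave the oocytes of a library or that libraries came from separate animals. P-values therefore measure the spread between libraries.

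Counts summed to between 14943671 and 44092144 in control libraries and between 8639444 and 26784110 in KO libraries, and values are given as CPM, read counts scaled to a common library size with edgeR's TMM factors. A total of 3 counts, taken as the floor of detection, made between 0.0802 and 0.326 CPM, and floors cover counting error only. Of the targeted genes, Cnot8 fell from 168 ± 20.01 to 35.2 ± 1.40 CPM and Cnot7 from 933 ± 77.3 to 719 ± 70.8 CPM (SD, n = 4 each). Cnot7 thus kept 77.1% of its control level over the whole gene, with a log2 fold change of -0.38 (adjusted p = 0.0105, edgeR quasi-likelihood). By the same test it was -0.092 (adjusted p = 0.385) with library sizes left unscaled, no longer past the threshold. With TMM factors from genes of at least 10 CPM it was -0.12 (adjusted p = 0.216), also not past it. At the protein level, the paper's immunoblots showed CNOT7 and CNOT8 to be absent from KO oocytes. Which exons the remaining Cnot7 reads cover was not tested. All 10 oocyte markers, such as Gdf9 and Zp3, were present, with a summed level of 18138 to 21121 CPM in control and 14977 to 17367 CPM in KO libraries. At an adjusted p of at most 0.05 by the same test, 5 were lower and 1 was higher (24.1% and 31.2% of all genes). None of them changed by 2-fold, and their median log2 fold change was -0.32. With library sizes left unscaled, 2 were lower and 1 was higher. Control replicate 1 and KO replicate 4 stood apart from the other libraries of their groups, with deviations from the group means that went together (r = 0.37 over genes), and the members were also compared without them. In bulk samples, fewer cells of a type and less RNA per cell cannot be told apart.

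Of the 10 members, all of which passed the filter of 0.2 CPM in at least 2 libraries, 4 were upregulated in KO oocytes by at least 2-fold at a false discovery rate of 0.05 (edgeR's quasi-likelihood test, adjusted by the Benjamini-Hochberg method over 19241 genes). They were Mcl1, Bcl2, Bid and Bcl2l2, against 23.8% of all genes tested. None was downregulated by 2-fold, against 6.56% of all genes, and none was so by edgeR's exact test, by DESeq2 or at an unadjusted p under 0.05. Without the fold threshold, the same 4 were higher (31.2% of all genes) and 2 were lower, Bcl2l10 and Bcl2l1 (24.1% of all genes). The ranges of the groups did not overlap for these 6 genes, 4 with every KO library above every control library (27.0% of all genes) and 2 with every KO library below (21.4%). The median log2 fold change was 0.28 over the members and 0.12 over all genes tested. More than 2 in 10 of all genes tested met each of these criteria except downregulation, so nothing particular to the family is read from the counts.

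**Figure D1:**
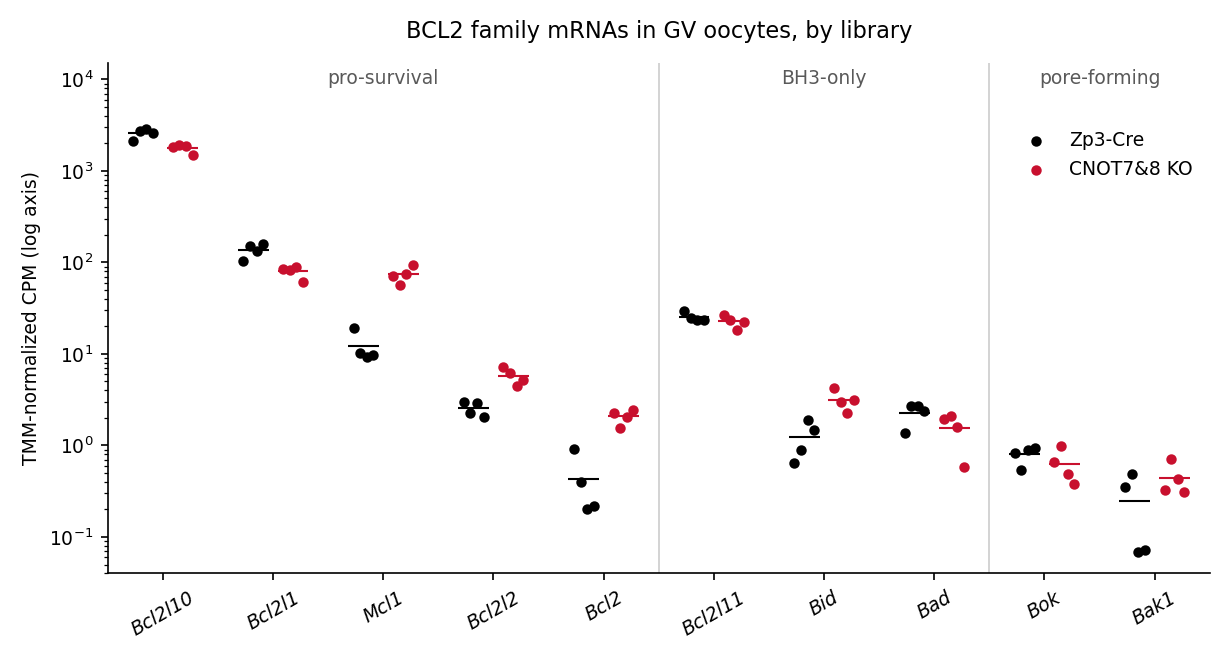
Level of each BCL2 family member in each library (points, TMM-normalized CPM on a log axis) with the group mean (bar), for 4 Zp3-Cre control libraries (black) and 4 CNOT7&8 KO libraries (red). The KO points lie above all control points for Mcl1, Bcl2l2, Bcl2 and Bid and below them for Bcl2l10 and Bcl2l1, and the groups overlap for the other 4.

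The members differ in the short elements of their 3′UTRs, which the CCR4-NOT deadenylase and its partner proteins are known to act through. The longest annotated 3′UTR of each was searched on the mRNA strand for TTTTAT, the cytoplasmic polyadenylation element (CPE), and for ATTTA, the core of AU-rich elements, counting overlapping matches. Over the 15132 tested genes with a 3′UTR of at least 50 bases, 56.2% held TTTTAT and 69.8% held ATTTA. The stretches below were chosen to show an element in each of the most abundant or most changed members, read from GRCm38 in the direction of the mRNA, with the element in capitals.
Bcl2, chr1:106543003-106543015, minus strand: aaaaaaagATTTATTTATTTAagacagtt
Mcl1, chr3:95662341-95662346, plus strand: acgtttatacTTTTATtagtttgctc
Mcl1, chr3:95662615-95662619, plus strand: tagtttgcttATTTAtgtttaactc
Bcl2l1, chr2:152780951-152780956, minus strand: cgagactagtTTTTATtccttgtgaa
Bcl2l10, chr9:75351566-75351570, plus strand: ggacttctgaATTTAtaatactccc
Bcl2l11, chr2:128162515-128162520, plus strand: tcttaatgaaTTTTATataaataaaa
The coordinates are those of the capitals. TTTTAT was found in 5 of the 10 members (Mcl1, Bcl2l1, Bcl2l2, Bcl2l11 and Bak1) and ATTTA in 8, all but Bid and Bak1. Of the 4 members that rose, Mcl1 and Bcl2l2 hold TTTTAT, and Bcl2 and Bid do not. In Bcl2, 3 copies of ATTTA run into each other.

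Mcl1 encodes a short-lived pro-survival protein that binds BAK and BIM. Its gene (ENSMUSG00000038612) lies on the plus strand at chr3:95658788-95663176. Mcl1 had 19.4, 10.3, 9.32 and 9.83 CPM in control replicates 1 to 4 and 71.7, 57.3, 74.0 and 93.7 CPM in KO replicates 1 to 4. Each KO library lay well above each control library, and control replicate 1 was apart from the other 3 controls. The mean was 12.2 ± 4.79 CPM in control and 74.2 ± 15.0 CPM in KO oocytes (SD, n = 4 each), a 6.08-fold difference of the means. The log2 fold change was 2.59 (standard error 0.24, 95% interval 2.06 to 3.12, adjusted p = 4.6e-06, edgeR quasi-likelihood), and 2.92 without control replicate 1. The 3′UTR of 2353 bases has 8 copies of ATTTA, where genes with a 3′UTR of like length (within 20%) have a median of 4, and 1 copy of TTTTAT, where they have a median of 2.

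Bcl2, the founding member of the family and a pro-survival protein, was at the edge of detection in control oocytes. The gene (ENSMUSG00000057329) lies on the minus strand at chr1:106538178-106714274. Its counts were 34, 8, 3 and 3 in control replicates 1 to 4, which makes 0.91, 0.39, 0.20 and 0.22 CPM. In KO replicates 1 to 4 they were 21, 28, 33 and 72, which makes 2.28, 1.54, 2.04 and 2.45 CPM. The groups did not overlap, although 2 of the control libraries were at the floor and control replicate 1 was the highest control. Means of 0.432 ± 0.330 and 2.08 ± 0.398 CPM (SD, n = 4 each) gave a log2 fold change of 2.09 (standard error 0.43, 95% interval 1.16 to 3.02, adjusted p = 0.00142, edgeR quasi-likelihood) and 2.85 without control replicate 1. The 3′UTR of 5086 bases, the longest among the members, has 15 copies of ATTTA and none of TTTTAT, and 93.8% of the genes with a 3′UTR of like length hold at least 1 TTTTAT.

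Bcl2l2 encodes BCL-W, a pro-survival protein. The gene (ENSMUSG00000089682) lies on the plus strand at chr14:54883377-54888234. It had 2.97, 2.27, 2.93 and 2.04 CPM in control replicates 1 to 4 and 7.17, 6.15, 4.502 and 5.21 CPM in KO replicates 1 to 4. All KO libraries were higher than all controls, by 2.26-fold between the means of 2.55 ± 0.467 and 5.76 ± 1.16 CPM (SD, n = 4 each), and the log2 ratio from the fit was 1.15 (standard error 0.22, 95% interval 0.67 to 1.64, adjusted p = 0.000926, edgeR quasi-likelihood). The 3′UTR of 3177 bases has 2 copies of each element, with medians of 3 TTTTAT and 5 ATTTA in genes of like length. Of its exon bases, 594 are shared with Gm20521 on the same strand, which had at most 2 counts in any library.

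Bcl2l10 was by far the most abundant member. Its protein is grouped with the pro-survival members by sequence, and both pro-survival and pro-death activities have been described for it in mouse. The gene (ENSMUSG00000032191) lies on the plus strand at chr9:75347758-75351632. It ranked 21 among the 19241 genes tested by mean CPM in control oocytes and 24 in KO oocytes, and 8 in control oocytes per kilobase of exon among the 19126 tested genes with a length. Its level was 2135, 2711, 2835 and 2600 CPM in control replicates 1 to 4 and 1804, 1930, 1874 and 1473 CPM in KO replicates 1 to 4. Each KO library was below each control library, with control replicate 1 the lowest control and KO replicate 4 the lowest of all. KO oocytes had 68.9% of the control level, with means of 2570 ± 306 and 1770 ± 205 CPM (SD, n = 4 each). On the log2 scale the change was -0.54 (standard error 0.12, 95% interval -0.80 to -0.27, adjusted p = 0.00278, edgeR quasi-likelihood). With library sizes left unscaled it was -0.26 (adjusted p = 0.111), so the call rests on the scaling. The 3′UTR of 499 bases, the shortest among the members, has 1 ATTTA and no TTTTAT, and 33.9% of genes with a 3′UTR of like length hold a TTTTAT.

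Bcl2l1, which encodes the pro-survival protein BCL-XL and, from another splice form, the pro-death protein BCL-XS, was the second most abundant member in control oocytes. The gene (ENSMUSG00000007659) lies on the minus strand at chr2:152780668-152831728, and its counts do not separate the splice forms. It had 103, 152, 132 and 158 CPM in control replicates 1 to 4 and 85.4, 83.2, 88.6 and 61.4 CPM in KO replicates 1 to 4. The KO libraries were all lower, at 58.5% of the control level, with means of 136 ± 25.0 and 79.7 ± 12.4 CPM (SD, n = 4 each). The log2 fold change was -0.78 (standard error 0.16, 95% interval -1.12 to -0.43, adjusted p = 0.00131, edgeR quasi-likelihood). With library sizes left unscaled it was -0.50 (adjusted p = 0.0267). Its 3′UTR of 1477 bases has 1 copy of each element.

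**Figure D2:**
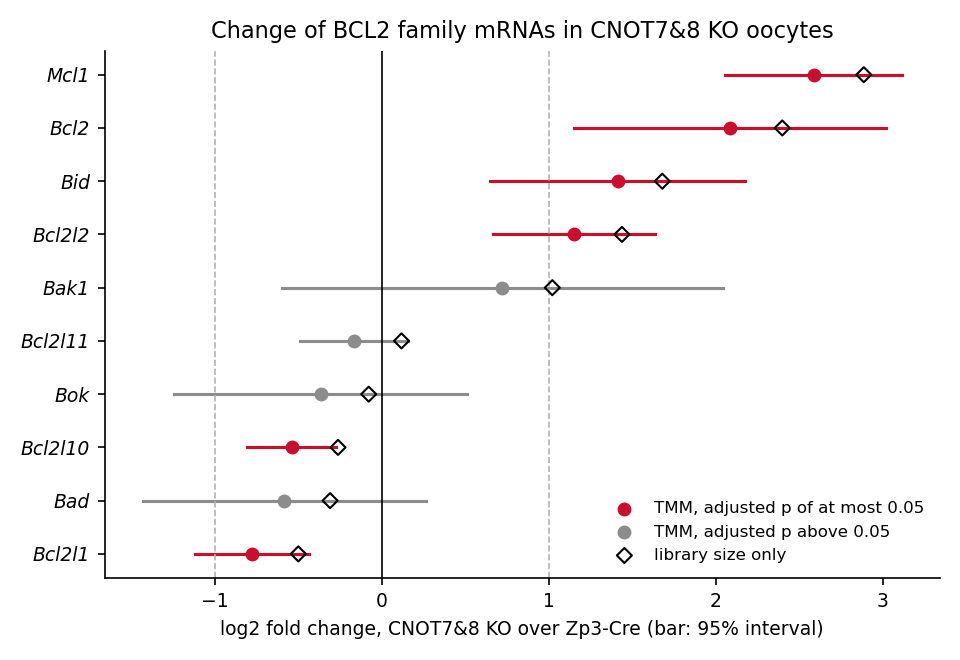
log2 fold change of each member between 4 CNOT7&8 KO and 4 Zp3-Cre libraries by edgeR's quasi-likelihood fit with TMM scaling (filled points, red at an adjusted p of at most 0.05 and grey above it) with its 95% interval (bar), and the value with library sizes left unscaled (open diamonds). Dashed lines mark a 2-fold change; Mcl1, Bcl2, Bid and Bcl2l2 lie past it, and every diamond lies to the right of its point.

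Among the BH3-only genes, Bid rose. Bid links death receptors to mitochondria, since caspase 8 cleaves its protein into the active form. The gene (ENSMUSG00000004446) lies on the minus strand at chr6:120891930-120916853. Its counts were 24, 18, 28 and 20 in control replicates 1 to 4, which makes 0.64, 0.89, 1.91 and 1.46 CPM. In KO replicates 1 to 4 they were 39, 54, 37 and 93, which makes 4.24, 2.97, 2.28 and 3.17 CPM. The 2 groups came close, with the highest control at 1.91 and the lowest KO library at 2.28 CPM, and did not overlap. Means were 1.22 ± 0.569 and 3.16 ± 0.809 CPM (SD, n = 4 each), and the log2 fold change was 1.41 (standard error 0.35, 95% interval 0.65 to 2.17, adjusted p = 0.00463, edgeR quasi-likelihood). Of the 3550 exon bases of Bid, 628 are shared with Bcl2l13 on the opposite strand. Bcl2l13 was far more abundant, at 87.0 ± 12.7 CPM in control and 78.7 ± 13.3 CPM in KO oocytes (SD, n = 4 each). Its log2 fold change was -0.14 (adjusted p = 0.421, edgeR quasi-likelihood). The strand setting of the counting was not given in the sources used here. Whether reads of Bcl2l13 enter the counts of Bid was not tested. The 3′UTR of Bid (1427 bases) holds neither element. Of the genes with a 3′UTR of like length, 65.8% hold TTTTAT and 83.6% hold ATTTA.

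Bcl2l11, which encodes BIM, a BH3-only protein that binds all pro-survival members, was the most abundant of the 3 BH3-only members per kilobase. The gene (ENSMUSG00000027381) lies on the plus strand at chr2:128126038-128162547. It had 29.6, 24.9, 23.3 and 23.6 CPM in control replicates 1 to 4 and 26.6, 23.8, 18.3 and 22.1 CPM in KO replicates 1 to 4. The groups overlapped. The log2 fold change was -0.17 (standard error 0.15, 95% interval -0.49 to 0.16, adjusted p = 0.364, edgeR quasi-likelihood), and it was 0.12 with library sizes left unscaled, so that no direction is given. The interval leaves out a 2-fold change either way. Its 3′UTR of 4218 bases has 4 copies of TTTTAT and 6 of ATTTA, with medians of 4 and 7 in genes of like length, and the TTTTAT printed above lies 27 bases from its end, next to an AATAAA polyadenylation signal that lies 18 bases from it.

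Bad, a BH3-only gene whose protein is held inactive by 14-3-3 proteins when phosphorylated, did not pass the test. The gene (ENSMUSG00000024959) lies on the plus strand at chr19:6941861-6951899. It had 1.36, 2.67, 2.72 and 2.40 CPM in control replicates 1 to 4 and 1.95, 2.09, 1.60 and 0.58 CPM in KO replicates 1 to 4. The lowest value of each group was in the library that stood apart, control replicate 1 and KO replicate 4, and the groups overlapped. The log2 fold change was -0.58, with a 95% interval of -1.43 to 0.26 (adjusted p = 0.221, edgeR quasi-likelihood). Of its exon bases, 524 are shared with Gpr137 on the opposite strand. Gpr137 had 550, 651, 473 and 392 counts in control replicates 1 to 4 and 151, 252, 321 and 258 in KO replicates 1 to 4. Those of Bad were 51, 54, 40 and 33 in control and 18, 38, 26 and 17 in KO replicates 1 to 4.

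The pore-forming members Bak1 and Bok had less than 1 CPM in every library, and Bak1 was the closer to the floor. Bak1 (ENSMUSG00000057789, minus strand of chr17:27019810-27029009), which encodes BAK, had 13, 10, 1 and 1 counts in control replicates 1 to 4 and 3, 13, 7 and 9 counts in KO replicates 1 to 4. Scaled, the controls lay between 0.0680 and 0.494 CPM and the KO libraries between 0.307 and 0.714 CPM. Its log2 fold change was 0.72 with a 95% interval of -0.60 to 2.04 (adjusted p = 0.332, edgeR quasi-likelihood), an interval that spans no change and a rise past 2-fold. Of the 2407 exon bases of Bak1, 437 are shared with Ggnbp1 on the opposite strand. Ggnbp1 had 28, 41, 29 and 14 counts in control replicates 1 to 4 and 13, 20, 18 and 36 in KO replicates 1 to 4. Bok (ENSMUSG00000026278, plus strand of chr1:93685660-93695764), a pore former that is abundant in the ovary and other reproductive tissues, had 31, 11, 13 and 13 counts in control replicates 1 to 4 and 6, 18, 8 and 11 counts in KO replicates 1 to 4. Scaled, they made 0.543 to 0.947 CPM in controls and 0.375 to 0.989 CPM in KO oocytes, with a log2 fold change of -0.37 and a 95% interval of -1.24 to 0.51 (adjusted p = 0.462, edgeR quasi-likelihood). Bax, the third pore former and not one of the 10 members, had a mean of 10.02 ± 3.17 CPM in controls against 8.38 ± 2.35 CPM in KO oocytes (SD, n = 4 each), and its log2 fold change was -0.25 (adjusted p = 0.452).

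The 3′UTRs of Bad (1026 bases) and Bok (602 bases) hold 1 ATTTA each and no TTTTAT, and that of Bak1 (1121 bases) holds 1 TTTTAT and no ATTTA. Exact permutation tests of the CPM values over the 70 assignments of 8 libraries gave a two-sided p of 0.0286, the smallest they can give, for each of the 6 genes without overlap, and between 0.171 and 0.371 for the other 4. Groups without overlap always give that smallest value, so it adds nothing to the ranges, whose shares over all genes are given above.

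Levels of different members were compared per kilobase of exon, the union of a gene's annotated exons. On this scale Bcl2l10 had 2107 ± 251 CPM per kilobase in control oocytes (SD, n = 4), Bcl2l1 29.7 ± 5.44, Mcl1 3.57 ± 1.40 and Bcl2l11 3.16 ± 0.360, and the other 6 had between 0.0471 and 0.895. The order of the first 2 did not depend on the library, whereas the ranges of Mcl1 and Bcl2l11 overlapped, as did those of each neighbouring pair from Bad down to Bcl2. In KO oocytes Bcl2l10 had 1451 ± 168 CPM per kilobase, Mcl1 21.7 ± 4.38, Bcl2l1 17.4 ± 2.70 and Bcl2l11 2.83 ± 0.432 (SD, n = 4 each). The other 6 had between 0.185 and 1.29. Mcl1 thus had ranges that overlapped those of Bcl2l11 in control and of Bcl2l1 in KO oocytes.

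Bcl2l10 held 98.2% ± 0.171 of the length-scaled level of all 10 members in control and 96.9% ± 0.471 in KO libraries (SD, n = 4 each). Among the other 9, Bcl2l1 held 66.3%, 79.7%, 77.3% and 80.8% in control replicates 1 to 4 and 39.4%, 43.3%, 41.8% and 28.8% in KO replicates 1 to 4. Mcl1 held 16.7%, 7.21%, 7.34% and 6.74% in control and 44.4%, 40.0%, 46.8% and 59.0% in KO replicates 1 to 4. The share of Bcl2l1 was thus lower and that of Mcl1 higher in every KO library than in any control library. Such shares do not depend on how library sizes are scaled, but they depend on the length given to each gene. With the longest transcript as length, Bcl2l1 held 49.97% ± 6.73 and Mcl1 35.1% ± 7.69 in KO libraries (SD, n = 4 each), so that which of them leads in KO oocytes is not settled by these counts, while in control oocytes Bcl2l1 led under both lengths.

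**Figure D3:**
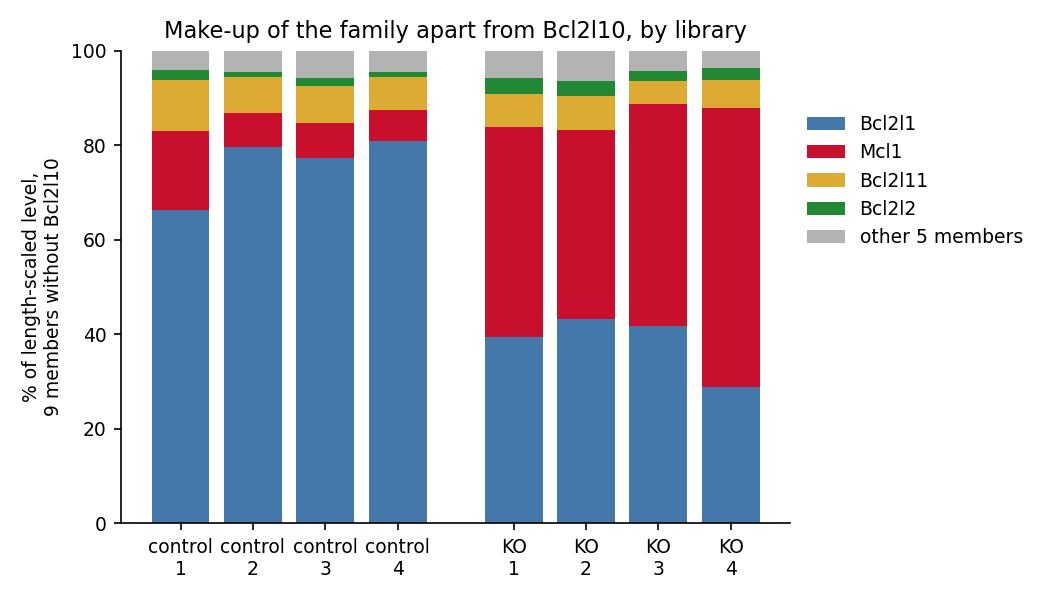
Share of each member in the summed length-scaled level (CPM per kilobase of exon) of the 9 members other than Bcl2l10, in percent, for each of the 4 control and 4 KO libraries (stacked bars). Mcl1 (red) takes 6.74% to 16.7% in control and 40.0% to 59.0% in KO libraries, and Bcl2l1 (blue) 66.3% to 80.8% and 28.8% to 43.3%.

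Genes around the members were followed in lists. Of the other 16 BCL2 family genes, 10 were tested, with a median log2 fold change of 0.02. Of these, 3 were upregulated (23.8% of all genes) and 1 was lower by less than 2-fold (24.1% of all genes were lower at any fold). The 3 were Pmaip1, Bmf and Bcl2l15. Pmaip1 encodes NOXA, a BH3-only protein that binds MCL1, and rose from 0.320 ± 0.166 to 8.03 ± 3.68 CPM (SD, n = 4 each), with a log2 fold change of 4.48 (adjusted p = 3.69e-06, edgeR quasi-likelihood). Its KO libraries lay between 4.83 and 13.3 CPM and its controls between 0.204 and 0.561 CPM. Its counts in control replicates 1 to 4 were 21, 6, 3 and 3, down to the floor, so the size of its change is uncertain. Bmf, another BH3-only gene, rose from 0.354 ± 0.228 to 2.50 ± 0.827 CPM (log2 fold change 2.85, adjusted p = 0.000155), and Bcl2l15 from 1.26 ± 0.473 to 3.52 ± 0.323 CPM (1.44, adjusted p = 0.00117). Bnip3l, a mitophagy receptor and the gene of this list with the highest CPM, had 210 ± 4.80 and 191 ± 11.9 CPM (log2 fold change -0.14, adjusted p = 0.222).

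Another list held 10 apoptosome and caspase genes, an incomplete list from which no balance of higher and lower genes is drawn. Of the 9 tested, 4 were lower (24.1% of all genes), 1 of them by 2-fold (6.56% of all genes). Casp8 was among the 4, and its protein acts before the pore, where it cleaves that of Bid. The 4 are therefore not read as a change downstream of the pore. Cycs, which encodes cytochrome c and had the highest CPM of the list, fell from 171 ± 9.10 to 116 ± 3.37 CPM (log2 fold change -0.55, adjusted p = 0.000384, edgeR quasi-likelihood; SD, n = 4 each). Dffb, the nuclease that cuts DNA in dying cells, was the downregulated gene, at 0.977 ± 0.181 CPM in controls against 0.154 ± 0.0876 CPM in KO oocytes (log2 fold change -2.54, adjusted p = 0.000705). It lies under the level set for naming genes and was named after its values were seen. Its counts in KO replicates 1 to 4 were 1, 1, 4 and 6, around the floor.

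All 8 genes of the list of inhibitors of apoptosis and their antagonists were tested. Without the fold threshold 3 were higher and 2 lower (31.2% and 24.1% of all genes). By 2-fold, 2 were upregulated and 1 downregulated (23.8% and 6.56% of all genes), and the median log2 fold change was 0.051. Birc2, which encodes the ubiquitin ligase cIAP1, rose from 10.7 ± 3.06 to 43.1 ± 4.85 CPM (log2 fold change 2.004, adjusted p = 5.71e-06, edgeR quasi-likelihood; SD, n = 4 each). Htra2, a mitochondrial protease that antagonizes these inhibitors once released, fell from 18.7 ± 1.97 to 8.93 ± 1.25 CPM (log2 fold change -1.07, adjusted p = 0.00013). Birc3, a close relative of Birc2 with the highest CPM of the list, had 764 ± 131 and 720 ± 32.9 CPM (log2 fold change -0.086, adjusted p = 0.567), a value whose sign differed between scalings. Sept4, whose ARTS form binds XIAP and which was also named after its values were seen, had 0.0927 ± 0.128 and 0.799 ± 0.0624 CPM (log2 fold change 3.29, adjusted p = 0.00302), and the value was 2.63 without control replicate 1 and 4.52 without control replicate 3. Its counts in control replicates 1 to 4 were 0, 2, 4 and 0, around the floor.

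Of 14 partners of BCL2 proteins at mitochondria and the endoplasmic reticulum, all tested, 1 was higher and 6 were lower (31.2% and 24.1% of all genes). Past 2-fold there was 1 of each (23.8% and 6.56% of all genes), and the median log2 fold change was -0.36. Bag6, a chaperone gene, fell from 25.3 ± 5.54 to 11.5 ± 3.38 CPM (log2 fold change -1.13, adjusted p = 0.000991, edgeR quasi-likelihood; SD, n = 4 each). Ywhaz, a 14-3-3 gene with the highest CPM of the list, fell from 442 ± 44.3 to 256 ± 23.9 CPM (log2 fold change -0.79, adjusted p = 8.78e-05). Bag3, a co-chaperone gene named after its values were seen, rose from 0.195 ± 0.130 to 1.60 ± 0.806 CPM (log2 fold change 2.90, adjusted p = 0.000822). Its counts in control replicates 1 to 4 were 10, 2, 5 and 1, down to under the floor.

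The turnover of MCL1 and BIM proteins was covered by 9 genes, with a median log2 fold change of 0.22. Of these, 2 were higher and 3 lower (31.2% and 24.1% of all genes). Usp9x, a deubiquitinase that stabilizes MCL1 and had the highest CPM of them, fell from 2277 ± 603 to 1259 ± 270 CPM (log2 fold change -0.85, adjusted p = 0.00196, edgeR quasi-likelihood; SD, n = 4 each). Trim17, a ubiquitin ligase gene named after its values were seen, was the 1 upregulated gene, with 0.381 ± 0.105 and 1.11 ± 0.730 CPM (log2 fold change 1.55, adjusted p = 0.0215). It did not pass the test without control replicate 1 (adjusted p = 0.0566) or without KO replicate 3 (adjusted p = 0.0971). The counts in these lists depended on the scaling. With library sizes left unscaled, none of the other BCL2 family genes, 3 of the caspase list, 1 of the inhibitors, 5 of the partners and 3 of the turnover genes were lower, and neither Htra2 nor Bag6 was lower by 2-fold. Under that scaling 3 of the other BCL2 family genes, 4 of the caspase list, 4 of the inhibitors, 2 of the partners and 6 of the turnover genes were higher. Over all 19241 genes tested, 7744 were higher and 2618 lower under it.

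**Figure D4:**
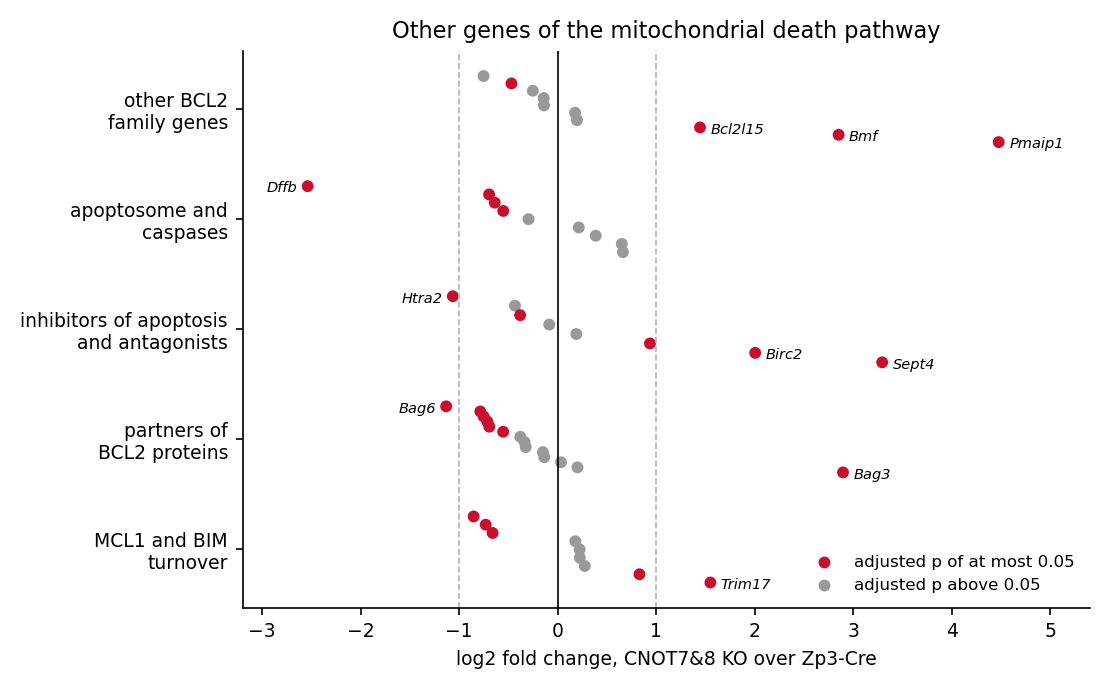
log2 fold change of each tested gene of 5 lists between 4 CNOT7&8 KO and 4 Zp3-Cre libraries, each point 1 gene, red at an adjusted p of at most 0.05 by edgeR's quasi-likelihood test and grey above it. Dashed lines mark a 2-fold change, past which 7 named genes lie to the right and 3 to the left.

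Markers of the somatic cells around the oocyte were read beside these results. Of 12 granulosa and cumulus markers, 11 were tested, 5 were upregulated (23.8% of all genes) and 1 was lower (24.1% of all genes). Their summed level was 129 to 176 CPM in control and 214 to 267 CPM in KO libraries. Inha, the inhibin alpha gene of granulosa cells, had 6.58, 4.44, 10 and 6.41 CPM in control replicates 1 to 4 and 38.4, 34.1, 26.5 and 4.77 CPM in KO replicates 1 to 4. Kitl, Fshr, Inhba and Nr5a2 were the other 4 that rose, Cyp19a1 was lower, and the defining factor Foxl2 was at or under 0.109 CPM in all libraries. The 5 did not move together in KO replicate 4. There Inha and Inhba (1.64 CPM) were not above the controls, whereas Kitl (40.1 CPM), Nr5a2 (132 CPM) and Fshr (3.34 CPM) were above all 4 control libraries, as were Mcl1, Bcl2, Bcl2l2 and Bid. Of the 5 theca and stroma markers, Col3a1 was downregulated (6.56% of all genes). The call was lost with library sizes left unscaled, with TMM factors from genes of at least 10 CPM and with the replicate block. It was also lost without any one of control replicates 3 and 4 and KO replicates 1, 2 and 3. Of the 3 blood markers, only Ptprc was tested, and it was upregulated (23.8% of all genes). Its counts in control replicates 1 to 4 were 1, 1, 5 and 1, around the floor. Theca and stroma markers summed to at most 4.23 CPM and blood markers to at most 1.11 CPM in any library, with Hba-a1 and Hbb-bs at 0 in all 8, and the part of somatic RNA in the members' levels was not tested.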

How the data were processed

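RNA of GV oocytes was measured in 4 Zp3-Cre and 4 CNOT7&8 KO libraries, and the genotype and replicate number in each column's name gave its sample. The authors mapped 150-bp read pairs to GRCm38 with STAR 2.6.1d (version from the submitters' processing notes) in nf-core/rnaseq 2.0 and deposited raw counts per gene, without normalization or filtering. Ribosomal RNA was depleted according to both the paper and the labels, which name different stranded kits (mRNA and total RNA). The counting tool, annotation and strand setting are not given in the sources used here, so overlapping and antisense genes are uncertain. Of the gene names, 27 read as dates, and Sept4 and March5 were found by Ensembl ID.

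The analysis used edgeR 4.0.16 and limma 3.58.1 under R 4.3.3. Genes that reached 0.2 CPM in at least 2 libraries were scaled by TMM and compared by edgeR's quasi-likelihood test, with p-values adjusted by the Benjamini-Hochberg method. A gene was a DEG when it changed 2-fold or more at an adjusted p up to 0.05. This test was used in place of the exact test of the paper's methods. Simulated data held 19241 genes, 200 of them changed 4-fold (a log2 change of 2). There the quasi-likelihood test recovered 189 with 9 false calls, the exact test 191 with 27 and DESeq2 191 with 15. In the measured data 4582 genes were upregulated and 1263 downregulated, far more than the 200 changed in the simulation. The simulation therefore does not give the error rates of the calls made here. Single genes were also compared by two-sided exact permutation tests. Gene positions, lengths and 3′UTRs came from GENCODE vM21 of GRCm38, in which 98.2% of the table's IDs were found. Figures used Python 3.11.15, pandas 2.3.3 and matplotlib 3.10.9.

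The members and lists were chosen with earlier results of these data known, and 1 gene of the apoptosome and caspase list is not reported here. The genes named are the members, Cnot7 and Cnot8, and, from each list, the DEGs whose mean reached 1 CPM (at most 6) and the gene with the highest CPM. Alternatives were the exact test, DESeq2 1.42.0, 4 other scalings, 2 other filters, the replicate number as a block, libraries left out and another gene length. Samples of the 2 genotypes with the same replicate number did not deviate together (r of -0.072, -0.042, 0.11 and -0.12 for numbers 1 to 4 over genes).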

Additional observations from a re-analysis of the deposited data

Results flagged for a closer look

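Of 54 groups of 4 values examined (each named gene in control and in KO libraries), Dixon's criterion marked 1 library as far from the rest in 4, where chance gives about 2.7, and in all 4 it was control replicate 1. Mcl1 had 19.4 CPM there, against 9.32 to 10.3 CPM in the other control libraries. Ywhaz had 508 CPM, against 412 to 426 CPM. Usp9x had 3177 CPM, against 1899 to 2046 CPM. Cnot7 had 1049 CPM, against 886 to 900 CPM. Without control replicate 1 the log2 fold change of Mcl1 was 2.92.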

How the results depend on the processing

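The calls of Mcl1, Bcl2, Bcl2l2, Bid and Bcl2l1 kept their direction and side of the threshold under all 18 alternatives fitted, with log2 fold changes of 2.48 to 2.92, 1.89 to 2.85, 1.07 to 1.44, 1.15 to 1.71 and -0.89 to -0.50, and 4 members were upregulated in each. Bcl2l10 was lower in 16 of 18. With library sizes left unscaled it was at -0.26 (adjusted p = 0.111), and with TMM factors from genes of at least 10 CPM at -0.30 (adjusted p = 0.0847), which left 1 member lower under each. These scalings moved the median log2 fold change of all genes by 0.29 and 0.25, and upper quartile scaling by 0.10. Bcl2l11 turned to 0.12 and 0.091 under the first 2, not past the threshold, Birc3 to 0.20, 0.17, 0.016 (upper quartile) and 0.028 (without control replicate 1 and KO replicate 4), from -0.15 to 0.041 without 1 library each, and Bnip3l to 0.14 and 0.11. Without any one library, no call of a member changed. Without control replicate 1 and KO replicate 4 together, Mcl1 was at 2.78, Bcl2 at 2.73 and Bid at 1.15. With the replicate block, which the numbers do not support as a pairing, Mcl1 was at 2.64 and Bcl2 at 2.28, and no call of a member changed; KO replicate 4 correlated best with control replicate 1 (r = 0.37). With the longest transcript as length, Bcl2l10 held 97.0% of the family in control and 95.9% in KO, and among the other 9 Bcl2l1 held 49.97% and Mcl1 35.1% in KO. Bak1 and Bok had no value at a filter of 1 CPM in 4 libraries. Depth limits the low members: Bak1, Bok, Bcl2 and Bid had 1 to 34 counts in control libraries.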
